A study of Homo sapiens with 4 samples.

Results

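The keratin family was examined in anaplastic thyroid carcinoma (ATC) cells that are sensitive or resistant to paclitaxel (PTX). Its members were the gene names made of KRT, a number and at most 1 further letter, without keratin-associated proteins and numbered pseudogenes, which gave 56 of the 26485 gene names in the deposited tables. Of these, 28 encode type I keratins and 26 type II keratins, KRT222 encodes a keratin-like protein, and KRT42P is an annotated pseudogene that fits the naming rule. SW1736 and 8505C are established human cell lines derived from ATC, and the tables hold 1 mRNA library for each of SW1736 wt, SW1736-PTX, 8505C wt and 8505C-PTX cells. The PTX cells had been exposed for 6 months to paclitaxel, a taxane that stabilizes microtubules, with the dose raised from 1 nM up to 1.5 µM, and stayed in 1.5 µM of the drug afterwards, whereas wt cells received none. All 4 were grown in RPMI medium, and the sources name neither clones nor repeat cultures of the resistant lines.

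Keratins are the intermediate filament proteins of epithelial cells. A type I and a type II keratin pair to form each filament, so that the filament needs members of both classes. Simple epithelia such as that of the thyroid follicle typically contain KRT8 and KRT18, often with KRT7 and KRT19, while stratified epithelia use KRT5 and KRT14 in their basal layer and hair uses a large set of its own. The filaments are anchored at desmosomes and hemidesmosomes by plaque proteins such as desmoplakin (DSP), plakoglobin (JUP) and plectin (PLEC).

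Levels are given as FPKM, the number of fragments corrected for transcript length and for the depth of the library, or as TPM, which in addition brings every library to one common sum. The libraries held 43.5 to 57.9 M reads (M for 1e6), estimated from the ratio of coverage to FPKM. With 1 library per condition there is no replicate check, no p-value was computed, and SW1736 and 8505C are separate lines, not repeats of one condition. A gene entered a comparison if either library of the pair exceeded 0.5 FPKM, and was called up-regulated or down-regulated when log2((A + 0.1)/(B + 0.1)) was above 1.5 or below -1.5. Intervals after a fold are 95% exact binomial intervals on estimated reads and cover counting error only.

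The library labelled SW1736-PTX departed from its parental line in some of the genes that mark the lineage. PAX8, a thyroid transcription factor, was at 38.2 FPKM in SW1736 wt against 0.206 in SW1736-PTX, and at 0.123 in 8505C wt against 0.146 in 8505C-PTX. NKX2-1, another thyroid transcription factor, was listed at 0 in SW1736 wt and was at 36.3, 30.5 and 39 FPKM in the other libraries, in the same order. FOXE1 was at 26.6, 0.511, 0.0443 and 0.178 FPKM in SW1736 wt, SW1736-PTX, 8505C wt and 8505C-PTX. Other genes did not follow this pattern. HHEX was at 12.4, 11.7, 5.92 and 14.4 FPKM, and the endothelial marker CDH5 at 0, 0.225, 55.9 and 4.53. KRT14 and KRT17, described below, were far lower in SW1736-PTX than in 8505C wt. Of all genes compared, 25.9% were called between SW1736-PTX and SW1736 wt, 20.4% between SW1736-PTX and 8505C wt, and 7.79% between the PTX libraries. Whether the sequenced SW1736-PTX culture descends from SW1736 was not tested, and a change under paclitaxel cannot be told apart from a difference between unlike cultures in any comparison of SW1736-PTX with SW1736 wt. For this reason the keratin calls of SW1736-PTX are given below against its parental line and also against 8505C wt. The thyroid markers TG, TSHR and SLC5A5 were at 0.00586 FPKM or less in every library, and among epithelial markers EPCAM and CDH1 were at 0.0806 FPKM or less.

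A small part of the family was expressed. Of the 56 keratins, 13 were above 0.5 FPKM in at least 1 library (23.2%, beside 55.5% of all gene names), 9 were detected without passing 0.5 FPKM, and 34 were listed at 0 in all 4 libraries. Only KRT7, KRT8, KRT18, KRT80 and KRT10 were above 0.5 FPKM in every library. Of the 5 simple epithelial keratins, 4 passed 0.5 FPKM somewhere, the exception being the intestinal keratin KRT20, which was listed at 0 throughout. Of the 8 keratins of basal or stressed stratified epithelium, 3 did so (KRT14, KRT15 and KRT17), and KRT5, the usual type II partner of KRT14, was listed at 0 in all libraries together with KRT6A, KRT6B and KRT6C. Hair shaft keratins gave 2 of 17 (KRT34 and KRT86), cornifying keratins 1 of 5 (KRT10), mucosal and corneal keratins 1 of 7 (KRT4) and inner root sheath keratins 0 of 9. The remaining members above 0.5 FPKM were KRT80 and KRT222.

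The family lies in 2 gene clusters (hg38). The cluster on chromosome 12 spans 52168996 to 52952901 and holds 27 members, all of the type II genes and the type I gene KRT18 at its edge. The cluster on chromosome 17 spans 40655620 to 41640199 and holds 29 members, among them the other type I genes. Expressed and silent members were neighbours in both, with 6 members above 0.5 FPKM on chromosome 12 and 7 on chromosome 17.

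To show the control regions of a keratin that appeared in both PTX lines and of a keratin at a similar level in every library, the 250 bases before the RefSeq start (GRCh38.p14) of KRT4 and KRT10 are printed 5′ to 3′ on the gene's strand, with matches to the searched motifs in capitals. The KRT4 region is chr12:52814117-52814366 and the KRT10 region chr17:40822615-40822864, both on the minus strand.
KRT4: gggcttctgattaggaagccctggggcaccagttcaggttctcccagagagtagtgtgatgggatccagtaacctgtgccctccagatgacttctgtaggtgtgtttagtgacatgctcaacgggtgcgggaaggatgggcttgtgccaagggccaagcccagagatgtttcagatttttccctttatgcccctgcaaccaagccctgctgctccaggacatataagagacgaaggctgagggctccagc
KRT10: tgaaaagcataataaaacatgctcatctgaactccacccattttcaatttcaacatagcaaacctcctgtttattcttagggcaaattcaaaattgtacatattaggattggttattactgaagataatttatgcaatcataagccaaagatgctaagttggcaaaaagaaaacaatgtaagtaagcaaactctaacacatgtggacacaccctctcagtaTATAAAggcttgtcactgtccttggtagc
The motifs were TATAAA (the TATA box), TGANTCA (bound by AP-1), GGGCGG (the GC box) and AACCGGTT (bound by grainyhead factors), searched on both strands. The KRT10 region held TATAAA at -29 from the start, and the KRT4 region held no exact match. RefSeq promoters were at hand for 34 of the 56 members. TATAAA occurred in 20 of them (58.8%), beside 11.1% of 27305 promoters of all genes, and GGGCGG in 4 (11.8%), beside 42.3%. Neither TGANTCA nor AACCGGTT occurred in a keratin promoter, beside 6.6% and 0.106% of all promoters. Of the expressed members, KRT4, KRT8, KRT10 and KRT34 were in the promoter table.

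KRT18 and KRT8 carried the largest part of the difference between PTX and wt cells. KRT18 (chromosome 12, 52948871 to 52952901), the type I keratin of simple epithelia, was at 257 FPKM in SW1736 wt against 1437 in SW1736-PTX, and at 511 in 8505C wt against 1239.7 in 8505C-PTX. It was higher in each PTX library than in both wt libraries. It was up-regulated in SW1736-PTX, 5.6-fold (5.51 to 5.69, log2 fold change 2.49). In 8505C-PTX it was 2.42-fold higher (2.39 to 2.45, log2 fold change 1.28), below the limit. In bulk RNA, more mRNA per cell and more cells that express the gene cannot be told apart. By TPM it ranked 42nd of all genes in SW1736-PTX, against 233rd in SW1736 wt.

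KRT8 (chromosome 12, 52897187 to 52949866), the type II partner of KRT18, was at 331 FPKM in SW1736 wt against 973 in SW1736-PTX, and at 439.5 in 8505C wt against 974 in 8505C-PTX. The PTX libraries were nearly equal and above both wt libraries. The gene was up-regulated in SW1736-PTX, 2.94-fold (2.9 to 2.98), with a log2 fold change of 1.55 that lay just past the limit. In 8505C-PTX it was 2.22-fold higher (log2 fold change 1.15). Relative to 8505C wt, SW1736-PTX had 2.81-fold more KRT18 (log2 1.49) and 2.21-fold more KRT8 (log2 1.15), so that neither passed the limit. With a log2 limit of 2 the KRT8 call in SW1736 was lost.

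KRT8 and KRT18 lie next to each other on opposite strands, and their spans in the tables overlap by 996 bases, so reads of the overlap could be assigned to either if strand was not used. Processed copies of both genes exist in the genome. Of all 75-base windows of the main GENCODE transcript, 18.8% of those of KRT8 and 6.5% of those of KRT18 also occur in transcripts of other genes. The 7 numbered keratin pseudogenes in the tables were at most at 0.267 FPKM.

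KRT7 (chromosome 12, 52233170 to 52248925), a type II keratin of ducts and glands, was at 913 FPKM in SW1736 wt against 1082 in SW1736-PTX, and at 321 in 8505C wt against 844 in 8505C-PTX. It was low in 8505C wt alone, and the other libraries were within a narrow range. The ratio of PTX to wt was 1.19 in SW1736 (log2 fold change 0.25) and 2.63 in 8505C (2.59 to 2.67, log2 fold change 1.39), neither past the limit. Between the wt lines, KRT7 was 2.84-fold higher in SW1736 (log2 1.51).

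KRT19 (chromosome 17, 41523617 to 41528389), a type I keratin of simple and ductal epithelium, was the member that differed most between the SW1736 libraries. It measured 266 FPKM in SW1736 wt and only 0.535 in SW1736-PTX, and was listed at 0 in 8505C wt and 8505C-PTX. It was high in SW1736 wt alone. The level in SW1736-PTX was 498-fold lower (log2 fold change -8.71), and among the 14202 genes compared in this line only 3 were lower on this scale. The level in SW1736-PTX rests on an estimated 43 reads, against 18101 in SW1736 wt, while 3 reads would have given 0.0403 to 0.0496 FPKM in the 8505C libraries. Between the wt lines KRT19 had the second highest log2 ratio of the 13457 genes compared, 11.38, which depends on the pseudocount because 8505C wt was listed at 0.

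**Figure D1:**
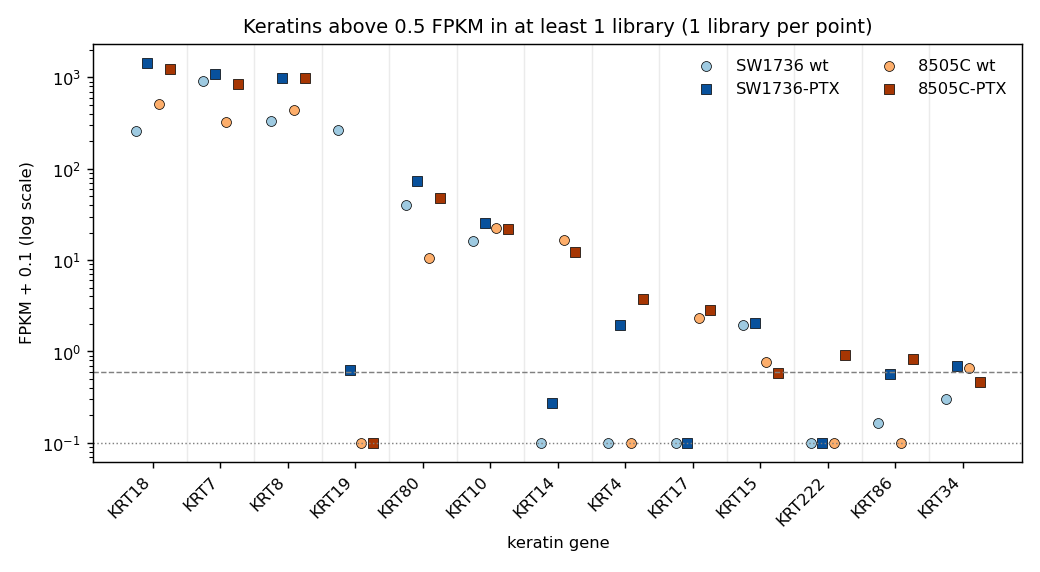
Level of each keratin above 0.5 FPKM in at least 1 library, as FPKM + 0.1 on a log axis. Each point is 1 library, circles are wt and squares PTX cells, the dashed line marks 0.5 FPKM and the dotted line genes listed at 0. KRT18 and KRT8 were higher in both PTX libraries than in both wt libraries, KRT19 stood at 266 FPKM in SW1736 wt alone, and KRT14 was at 16.6 and 12.2 FPKM in the 8505C libraries and at 0.17 or less in the SW1736 libraries.

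Summed over the family, keratins made up 0.416% of the TPM of SW1736 wt, 0.793% of SW1736-PTX, 0.303% of 8505C wt and 0.701% of 8505C-PTX. The sum was 1.91-fold higher in SW1736-PTX and 2.31-fold higher in 8505C-PTX than in the parental lines, both below the limit used for single genes. KRT7, KRT8 and KRT18 together held 82.2% of the keratin TPM in SW1736 wt and 96% to 97.1% in the other libraries. KRT19 held 14.6% of the keratin TPM in SW1736 wt and at most 0.0149% elsewhere.

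The make-up of each class differed as well. In SW1736 wt the type I sum of 1233 TPM was divided between KRT19 (49.2%) and KRT18 (47.4%). In SW1736-PTX the type I sum was 3233 TPM, of which KRT18 was 98%. KRT18 was also 92.3% of the type I sum in 8505C wt and 97% in 8505C-PTX. Type II mRNA exceeded type I mRNA in every library. The ratio of type II to type I was 2.38 in SW1736 wt and between 1.39 and 1.46 in the other libraries. KRT8 relative to KRT18 was 1.29 in SW1736 wt on the TPM scale and 0.677, 0.859 and 0.786 in SW1736-PTX, 8505C wt and 8505C-PTX.

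**Figure D2:**
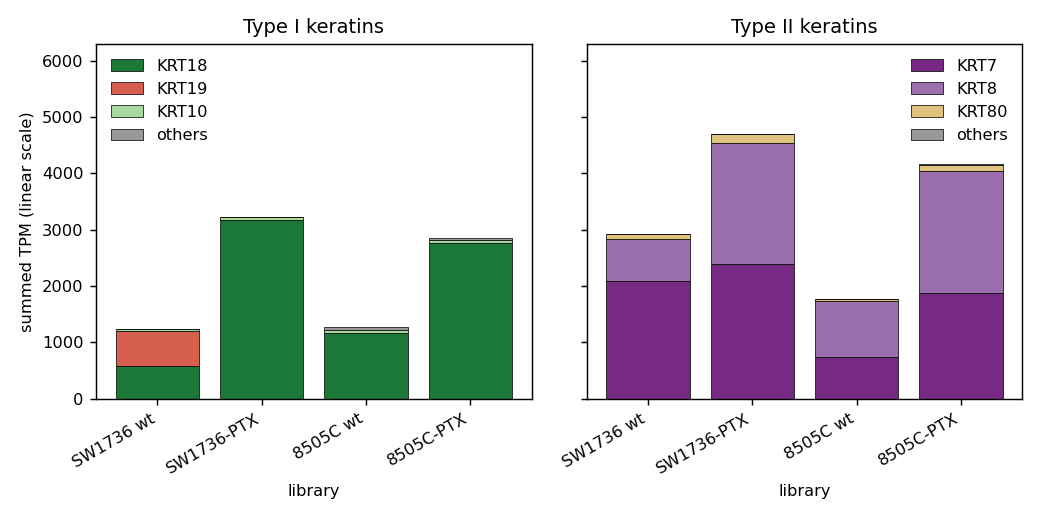
Summed TPM of type I (left) and type II (right) keratins in each library on a linear scale, with the main members in colour. KRT19 filled 49.2% of the type I bar in SW1736 wt and is not visible in the other libraries, where KRT18 held at least 92.3%.

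Vimentin, the intermediate filament protein of mesenchymal cells, was abundant in all libraries. VIM was at 8401 TPM in SW1736 wt, 3839 in SW1736-PTX, 3241 in 8505C wt and 2941 in 8505C-PTX, and its log2 fold changes on the FPKM scale were -1.08 in SW1736 and -0.1 in 8505C, neither past the limit. The keratin sum per unit of VIM was 0.495 in SW1736 wt and 0.935 in 8505C wt, and 2.07 and 2.38 in the PTX libraries. Keratin mRNA was thus below vimentin mRNA in both wt libraries and above it in both PTX libraries.

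**Figure D3:**
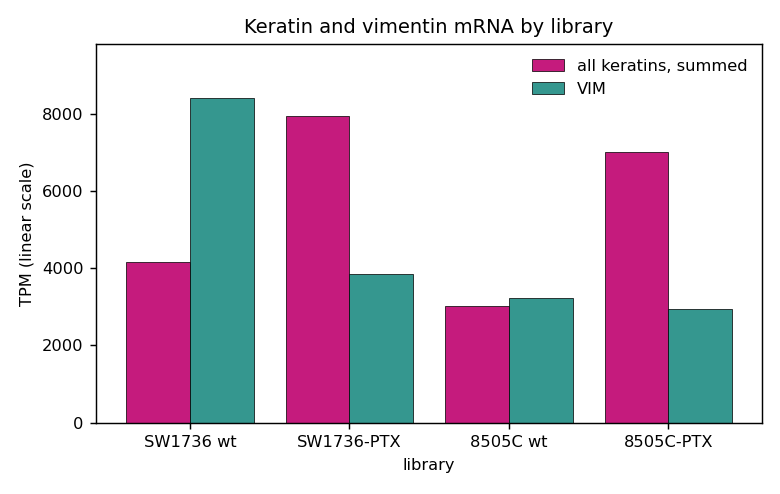
Summed TPM of all keratins beside the TPM of VIM in each library, on a linear scale. The keratin bar is the lower of the pair in SW1736 wt (4162 against 8401) and 8505C wt (3031 against 3241) and the higher in SW1736-PTX (7933 against 3839) and 8505C-PTX (7012 against 2941).

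KRT80 (chromosome 12, 52168996 to 52192000), a type II keratin of many epithelia, was at 40.4 FPKM in SW1736 wt against 73 in SW1736-PTX, and at 10.5 in 8505C wt against 47.2 in 8505C-PTX. It was lowest in 8505C wt. It was up-regulated in 8505C-PTX, 4.48-fold (4.26 to 4.72, log2 fold change 2.15), and was 1.81-fold higher in SW1736-PTX (log2 fold change 0.85). Between the wt lines it was 3.83-fold higher in SW1736.

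KRT10 (chromosome 17, 40818117 to 40822611), a type I keratin of differentiating epidermis, was at 16.1, 25.1, 22.4 and 21.6 FPKM in SW1736 wt, SW1736-PTX, 8505C wt and 8505C-PTX. Its 4 values lay close together, and its log2 fold changes were 0.64 in SW1736 and -0.06 in 8505C.

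KRT14 and KRT17 separated the 8505C libraries from both SW1736 libraries. KRT14 (chromosome 17, 41582279 to 41586895), the basal type I keratin, was listed at 0 in SW1736 wt and was at 0.17 FPKM in SW1736-PTX, 16.6 in 8505C wt and 12.2 in 8505C-PTX. KRT17 (chromosome 17, 41619440 to 41624630), a type I keratin of injured or appendage epithelium, was listed at 0 in SW1736 wt and SW1736-PTX and was at 2.21 FPKM in 8505C wt and 2.77 in 8505C-PTX. Neither was called between PTX and wt cells of 8505C, with log2 fold changes of -0.44 for KRT14 and 0.31 for KRT17. KRT14 was 97.8-fold lower in SW1736-PTX than in 8505C wt and 71.8-fold lower than in 8505C-PTX. It had the eleventh lowest log2 ratio of the 13824 genes compared between SW1736-PTX and 8505C wt.

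KRT15 (chromosome 17, 41513745 to 41519018), a type I keratin of basal and follicle stem cells and a neighbour of KRT19, went the other way. It was at 1.86 FPKM in SW1736 wt against 1.93 in SW1736-PTX, and at 0.658 in 8505C wt against 0.479 in 8505C-PTX. The SW1736 libraries were nearly equal, and both were above the 8505C libraries. Between the PTX libraries KRT15 was 4.03-fold higher in SW1736-PTX (2.9 to 5.74). KRT16, a stress keratin, did not pass 0.5 FPKM and was at 0.103 in SW1736-PTX, 0.48 in 8505C-PTX and listed at 0 in both wt libraries. Of the 75-base windows of the main transcripts, 10.2% of KRT14, 9.6% of KRT16 and 4.57% of KRT17 occur in other genes as well, so low values of these genes are uncertain.

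KRT4 (chromosome 12, 52806543 to 52814116), a type II keratin of moist stratified epithelium such as that of the esophagus, was the member called up-regulated in both lines. It was listed at 0 in both wt libraries and was at 1.87 FPKM in SW1736-PTX (an estimated 232 reads) and 3.68 in 8505C-PTX (422 reads). In the wt libraries 3 reads would have given 0.0286 and 0.0322 FPKM. Its log2 fold changes depend on the pseudocount, with 4.30 in SW1736 and 5.24 in 8505C at 0.1 and 1.52 and 2.23 at 1. Its usual type I partner KRT13 was at 0.107 FPKM in 8505C wt and was listed at 0 in the other libraries. Both wt libraries listed more genes at 0 (10379 and 10241 gene names) than the PTX libraries (8485 and 8869), and the part of this in KRT4 was not tested.

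The other members called in 8505C-PTX were low. KRT222 (chromosome 17, 40655620 to 40665164) was at 0.814 FPKM in 8505C-PTX, an estimated 118 reads, and was listed at 0 in the other libraries. KRT86 (chromosome 12, 52301865 to 52309163), a type II keratin of the hair cortex, was at 0.0652 FPKM in SW1736 wt against 0.469 in SW1736-PTX, and at 0 in 8505C wt against 0.723 in 8505C-PTX, and its paralogue KRT81 was at 0.0412, 0.116, 0 and 0.341 FPKM. Both were highest in 8505C-PTX, but 32.7% of the windows of KRT86 and 36.6% of those of KRT81 occur in other genes, each other among them. In SW1736, KRT86 had a log2 ratio of 1.78 but was not compared, since both libraries were below 0.5 FPKM. For KRT222 the same share was 35.6%, from 1 other annotated gene. With an FPKM limit of 1, or a pseudocount of 1, the calls of KRT222 and KRT86 were lost. KRT34, a type I hair keratin (chromosome 17, 41377669 to 41382384), was between 0.204 and 0.594 FPKM in all libraries and was not called.

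Among the other detected members, KRT33B was between 0.0381 and 0.115 FPKM in all libraries, and KRT9, KRT12, KRT23, KRT71 and KRT83 were at 0.0625 FPKM or less wherever they were detected.

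The calls were then counted. In SW1736, 4 of the 9 keratins compared were called, with KRT4, KRT8 and KRT18 up-regulated and KRT19 down-regulated, beside 25.9% of all 14202 genes compared (15.7% up-regulated, 10.2% down-regulated). In 8505C, 4 of the 12 keratins compared were called, all of them up-regulated (KRT4, KRT80, KRT86 and KRT222), beside 20.9% of all 13794 genes (15.0% up-regulated, 5.89% down-regulated). A gene listed at 0 in 1 library could pass the FPKM limit only through the other and was then bound to be called. This held for KRT4 in both lines and for KRT86 and KRT222 in 8505C. These counts, and the medians below that include the same genes, are therefore a description. With both libraries of the pair above 0.5 FPKM, 1 of 7 keratins (KRT80) was called in 8505C and 3 of 7 (KRT8, KRT18 and KRT19) in SW1736. The share of all genes called under this stricter limit was not computed, and the shares above do not match it. The median log2 fold change of the keratins compared was 0.85 in SW1736 and 1.21 in 8505C, beside 0.01 and 0.11 for all genes compared. Of the 8 keratins compared in both lines, 1 (KRT4) was up-regulated in both, beside 7.37% of 13304 genes, and 0 were down-regulated in both, beside 2.41%. No keratin was called in opposite directions in the 2 lines.

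**Figure D4:**
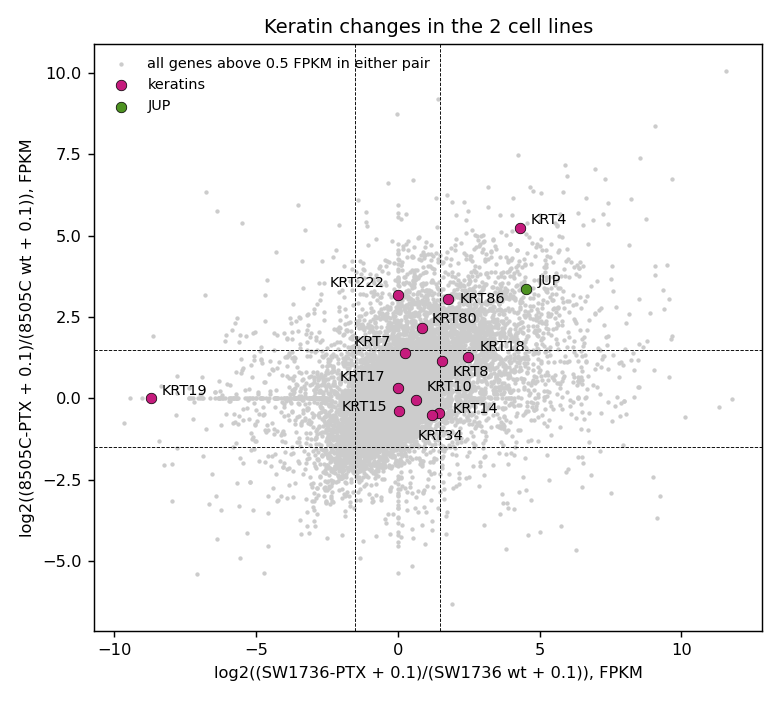
Log2 fold change of FPKM + 0.1 between PTX and wt cells in SW1736 (horizontal) and 8505C (vertical) for all genes above 0.5 FPKM in either pair (grey), the 13 keratins above 0.5 FPKM in at least 1 library (pink) and JUP (green). Dashed lines mark 1.5 and -1.5. KRT4 lies beyond both upper limits, KRT18 and KRT8 lie beyond the SW1736 limit and below the 8505C limit, and KRT19 lies at -8.71 on the horizontal axis.

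Across lines, 5 of 10 keratins compared were called between the wt libraries, beside 17.6% of all genes (9.92% higher and 7.73% lower in SW1736 wt). KRT7, KRT19 and KRT80 were higher in SW1736 wt, and KRT14 and KRT17 were higher in 8505C wt. Between the PTX libraries 5 of 13 were called, beside 7.79% of all genes (4.09% higher and 3.70% lower in SW1736-PTX), with KRT15 and KRT19 higher in SW1736-PTX and KRT14, KRT17 and KRT222 higher in 8505C-PTX. With a pseudocount of 1 the calls of KRT15 (log2 0.99), KRT19 (0.62) and KRT222 (-0.86) were lost, and with an FPKM limit of 1 those of KRT19 and KRT222. The abundant members were close between the PTX libraries, with log2 ratios of 0.21 for KRT18, -0.00 for KRT8, 0.36 for KRT7 and 0.63 for KRT80. Between SW1736-PTX and 8505C wt, 6 of 11 were called, beside 20.4% of all genes (15.1% higher and 5.23% lower in SW1736-PTX). KRT4, KRT7, KRT19 and KRT80 were higher in SW1736-PTX, and KRT14 and KRT17 were lower. These comparisons share libraries with each other and with those of PTX and wt cells. All 5 members called between the PTX libraries were below 0.5 FPKM in 1 of them, so the counts are a description. With both libraries of the pair above 0.5 FPKM, 0 of 6 keratins were called between the PTX libraries. Under that limit KRT7 and KRT80 were called between the wt libraries (2 of 6) and between SW1736-PTX and 8505C wt (2 of 7). The share of all genes called under that limit was not computed.

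The proteins that anchor keratins to junctions were considered next. Of 24 genes of desmosomes and hemidesmosomes, 18 entered the comparison in SW1736 and 18 in 8505C. Of those in SW1736, 6 were up-regulated and 2 were down-regulated, while 8505C had 3 in each direction, beside 25.9% (15.7% up-regulated, 10.2% down-regulated) and 20.9% (15.0% up-regulated, 5.89% down-regulated) of all genes compared in SW1736 and 8505C. The median log2 fold change of the list was 0.49 in SW1736 and 0.00 in 8505C. With both libraries of the pair above 0.5 FPKM, 2 linkers (JUP and PKP3) were called in SW1736 and 4 (JUP, PKP1, ITGA6 and ITGB4) in 8505C. Neither the number of linkers compared under this limit nor the share of all genes called was computed. The other called linkers had entered only through the library where they were high. JUP (chromosome 17, 41754607 to 41786712) encodes plakoglobin and lies 130 kb from KRT17, 168 kb from KRT14 and 226 kb from KRT19. JUP was at 9.56 FPKM in SW1736 wt against 224 in SW1736-PTX, and at 27.8 in 8505C wt against 288 in 8505C-PTX. Both PTX libraries were far above both wt libraries, with folds of 23.4 and 10.4. ITGB4, the integrin subunit of hemidesmosomes, was the other linker up-regulated in both lines (log2 fold changes 3.28 and 3.9), and EVPL, the plaque protein envoplakin, was down-regulated in both (-3.43 and -4.16).

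Other linkers were called in 1 line. The desmosomal cadherins DSC3 and DSC2 were listed at 0 in SW1736 wt and were at 25.2 and 1.17 FPKM in SW1736-PTX, beside 18 and 2.76 in 8505C wt and 17.2 and 2.82 in 8505C-PTX. The plaque protein PKP3 (log2 fold change 1.87) was up-regulated and the plaque protein PPL (-4.11) was down-regulated in SW1736-PTX. EPPK1, another gene of the list, was up-regulated there as well (2.46), from 0.0249 to 0.588 FPKM. In 8505C-PTX the plaque protein PKP1 was up-regulated (1.67), and the hemidesmosome genes ITGA6 (-1.8) and COL17A1 (-3.19) were down-regulated. The keratin-binding plaque proteins desmoplakin and plectin were not called. DSP was at 9.15, 13.2, 16.2 and 27.3 FPKM and PLEC at 85.5, 106, 149 and 121 in SW1736 wt, SW1736-PTX, 8505C wt and 8505C-PTX. Relative to 8505C wt, 2 of 18 linkers were higher in SW1736-PTX (JUP and ITGB4), beside 15.1% of all genes. Lower were 4 (PKP1, PKP2, EVPL and COL17A1), beside 5.23%. Of these, PKP1, EVPL and COL17A1 were below 0.5 FPKM in SW1736-PTX. PKP3 (log2 0.82) was not called in that comparison.

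Of 15 other intermediate filament genes, 9 entered the comparison in SW1736, of which 3 were called. In 8505C, 10 entered it, of which 5 were called, beside the same 25.9% and 20.9% of all genes. DES, GFAP, PRPH and NES were below 0.5 FPKM in 8505C wt and entered that comparison only through the PTX library. With both libraries of the pair above 0.5 FPKM, 1 was called in SW1736 (NES) and 1 in 8505C (SYNM). Neither the number of these genes compared under this limit nor the share of all genes called was computed. The neural filament genes NES (log2 fold changes 2.7 and 2.9) and PRPH (3.09 and 1.8) were up-regulated in both lines, although PRPH did not exceed 0.753 FPKM. INA, a neuronal filament gene, dropped from 22.6 FPKM in SW1736 wt to 0.0447 in SW1736-PTX and was listed at 0 in the 8505C libraries. In 8505C-PTX the muscle filament genes DES (2.91) and SYNM (1.69) and the glial GFAP (2.14) were up-regulated as well, with DES and GFAP below 0.7 FPKM. The nuclear lamins were not called, with log2 fold changes of -1.38 and -1.23 for LMNB1, -1.04 and -1.45 for LMNB2 and 0.04 and -0.24 for LMNA. Relative to 8505C wt, 4 of 8 genes of this list were higher in SW1736-PTX (PRPH, NES, SYNM and BFSP1), beside 15.1% of all genes. Of these, PRPH, NES and BFSP1 were below 0.5 FPKM in 8505C wt.

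Of 20 regulators of keratin genes or epithelial fate, 12 entered the comparison in SW1736, where 5 were up-regulated and 3 were down-regulated. In 8505C, 11 entered it, with 4 up-regulated and 0 down-regulated. The shares of all genes called were again 25.9% in SW1736 and 20.9% in 8505C. With both libraries of the pair above 0.5 FPKM, 6 regulators were called in SW1736 and 2 (TFAP2C and CEBPA) in 8505C. Neither the number of regulators compared under this limit nor the share of all genes called was computed. CEBPA, a factor of epithelial differentiation, was up-regulated in both lines (1.68 and 1.79). KLF4 (2.46) and KLF5 (1.87), zinc finger factors of differentiating and proliferating epithelium, CEBPB (3.97) and the mesenchymal repressor ZEB2 (3.54) were up-regulated in SW1736-PTX, and their log2 fold changes in 8505C were 0.55, -0.06, 1.25 and 0.34. The splicing factor ESRP2 was down-regulated in SW1736-PTX (-2.58), and the factor TFAP2C was up-regulated in 8505C-PTX (3.51). ZEB2 and ESRP2 entered the SW1736 comparison only through the library where they were high. Relative to 8505C wt, 5 of 11 regulators were higher in SW1736-PTX (KLF4, TFAP2C, GATA3, CEBPA and SNAI2), beside 15.1% of all genes. Of these, GATA3 and SNAI2 were below 0.5 FPKM in 8505C wt. In that comparison KLF5 (-0.49), CEBPB (1.38) and ZEB2 (-0.39) were not called. TP63, the master factor of basal epithelium, was at 0.0455 FPKM or less in every library, also where KRT14 was expressed.

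**Figure D5:**
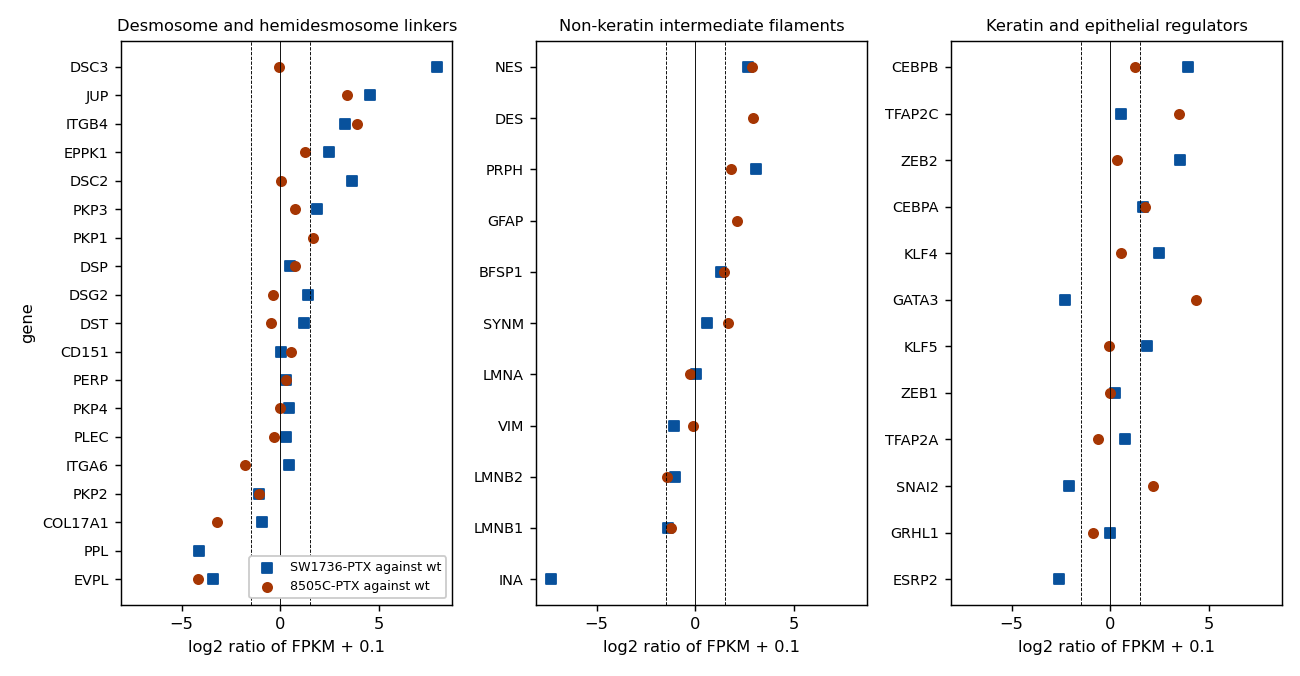
Log2 ratio of FPKM + 0.1 between PTX and wt cells for linkers, other intermediate filaments and regulators, shown where the gene was above 0.5 FPKM in the pair (blue squares SW1736, brown circles 8505C). Dashed lines mark 1.5 and -1.5. JUP and ITGB4 lie beyond the upper limit in both lines, EVPL lies below the lower limit in both, and GATA3 and SNAI2 lie beyond opposite limits.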

How the data were processed

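One mRNA library per condition was sequenced as single-end reads of 75 bp. Before deposit, the authors used Cutadapt to mask adapters and ERNE to trim poor bases. STAR served for alignment to hg38 and StringTie for the quantities per gene. The annotation and the versions of STAR, ERNE and StringTie are not given in the sources used here. The deposited tables give for each gene the read coverage (signal per base, not scaled to depth). They also hold FPKM, deposited by the authors as StringTie's value, and TPM, deposited as well, in which each library has one common sum. No read counts were used.

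FPKM of rows that share a gene name were summed. Of the 56 keratins, 10 had further rows on alternate sequences, 0 of which were above 0 FPKM. Depth was taken from the ratio of coverage to FPKM, and reads per gene were estimated from FPKM, depth and the length of the MANE transcript in GENCODE release 44 on hg38, whose genes overlapped the deposited spans for all 56 keratins. The floor of 3 reads and the intervals cover counting error only. The FPKM limit of 0.5 and the log2 limit of 1.5 are those of the study's methods, and the pseudocount of 0.1 is a choice made here. The code that makes the calls was tested on simulated data with counting noise only, which says nothing of the spread between cultures.

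Named were all keratins above 0.5 FPKM in at least 1 library, list members called in at least 1 line, VIM, DSP, JUP and PLEC, and marker genes above 0.5 FPKM; low keratins and undetected markers were named after their values were seen. The members and lists were chosen with earlier results of these data known. Alternatives changed the pseudocount, the FPKM minimum, the unit, the centring, the rows summed and the log2 limit. Keratin protein sequences were not used here. Python 3.11.15, NumPy 2.4.6, pandas 2.3.3, SciPy 1.17.1 and matplotlib 3.10.9 were used.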

Additional observations from a re-analysis of the deposited data

Results flagged for a closer look

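Among the genes of the lists used here, 3 were called in opposite directions in the 2 lines, and the difference between the lines was not tested. The share of all genes called in opposite directions was not computed. In 8505C, all 3 were below 0.5 FPKM in wt cells and entered the comparison only through the PTX library. GATA3, a transcription factor of several epithelia, was at 11.7 FPKM in SW1736 wt against 2.31 in SW1736-PTX, and at 0.0978 in 8505C wt against 3.88 in 8505C-PTX (log2 fold changes -2.29 and 4.33). SNAI2, a repressor of epithelial genes, had FPKM values of 4.72, 1.05, 0.202 and 1.27 in that order (-2.07 and 2.18). COL1A1, a fibrillar collagen, was highest in SW1736 wt at 153 FPKM, fell to 2.19 in SW1736-PTX and was lowest in 8505C wt at 0.217 (-6.07 and 1.94). For all 3 genes, SW1736 wt had the highest and 8505C wt the lowest level, with the PTX libraries between them. Part of this order was set by the choice of the genes. Calls in these directions require SW1736 wt to exceed SW1736-PTX and 8505C wt to lie below 8505C-PTX.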

How the results depend on the processing

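Of 520 log2 values of single keratins under the alternatives, 412 stayed within the counting interval of the reported value or equal to it (a filter on FPKM cannot move them), and of 128 counts and sums 100 stayed within 1.5 times of the reported value or within counting error. With a pseudocount of 1 FPKM, 2 keratins were called in 8505C and 2 between the PTX libraries (KRT14 and KRT17), 5 linkers in SW1736, 1 other filament gene in 8505C, and 5 and 2 regulators in SW1736 and 8505C. With an FPKM above 0.5 in both libraries of a pair, the number of keratins called was 1 in 8505C, 2 between the wt libraries, 0 between the PTX libraries, 2 between SW1736-PTX and 8505C wt, and 0 in both lines, since each lost gene (KRT4, KRT14, KRT15, KRT17, KRT19, KRT86 and KRT222) was below 0.5 FPKM in a library of the pair and was no longer compared. This limit also left 2 linkers in SW1736, 1 other filament gene in each line and 2 regulators in 8505C. With an FPKM above 1, 2 keratins were called in 8505C and 3 between the PTX libraries, and 2 other filament genes in 8505C. Without a filter, and with TPM in place of FPKM, 2 keratins (KRT4 and KRT86) were up-regulated in both lines and 5 other filament genes were called in SW1736. With a log2 limit of 1, 7 keratins were called in 8505C, 3 in both lines (KRT4, KRT8 and KRT18), and 7 and 8 other filament genes in SW1736 and 8505C. With a log2 limit of 2, 3 keratins were called between the wt libraries and 3 other filament genes in 8505C. The cause of these shifts was not tested beyond the number of genes that each setting admits. No paired analysis was possible because each condition has 1 library, and for the same reason no library could be left out.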

Other observations

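Beside the keratins, involucrin, a claudin and a growth factor receptor were up-regulated in both lines, as were 7.37% of 13304 genes. All of them were below 0.5 FPKM in both wt libraries. They entered the comparisons only through the PTX libraries, so these calls are a description. IVL, a precursor of the cornified envelope of stratified epithelium, had FPKM values of 0, 2.89, 0.157 and 6.79 in SW1736 wt, SW1736-PTX, 8505C wt and 8505C-PTX. CLDN4, a tight junction protein, had FPKM values of 0.368, 4.33, 0.459 and 4.16 in that order. PDGFRB, a receptor of mesenchymal cells, had 0.402, 6.08, 0.0922 and 6.49. SFN, the epithelial 14-3-3 protein, was at 106, 34.1, 62.1 and 27.1 FPKM, lower in both PTX libraries and past the limit in SW1736 (log2 fold change -1.63). The cadherin CDH3 was at 2.36 FPKM in SW1736 wt and at 0.0868 or less in the other libraries, and CLDN7 was between 0.926 and 2.67 FPKM.

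The summed TPM of 7 general epithelial markers was 1349, 5329, 2179.6 and 4946 in SW1736 wt, SW1736-PTX, 8505C wt and 8505C-PTX. These markers include KRT8 (755, 2147, 1005 and 2169.6 TPM) and KRT18 (585, 3169.7, 1170.1 and 2761), which made up nearly all of the sum. The sum therefore restates the change of these keratins. That of 6 squamous markers was 242, 82, 180.5 and 103 TPM, of which SFN gave 242, 75.2, 142 and 60.4. IVL, also in the squamous list, went the other way (0, 6.38, 0.36 and 15.1 TPM). The 8 thyroid markers gave 176, 108, 83.7 and 119 TPM, from FOXE1 (26.6 FPKM in SW1736 wt and 0.511 or less elsewhere), HHEX (5.92 to 14.4 FPKM), PAX8 and NKX2-1. The 6 fibroblast markers gave 588, 22.1, 0.767 and 18 TPM, with COL1A2 at 104 FPKM in SW1736 wt, down to 1.67 in SW1736-PTX and listed at 0 in the 8505C libraries. The 5 leukocyte markers gave 1.32 to 10.1 TPM, mainly from CD14 (0.576 to 4.5 FPKM), which was up-regulated in 8505C-PTX (log2 fold change 2.77). The 4 endothelial markers gave at most 1.03 TPM in SW1736 and SW1736-PTX, and 128 and 10.8 in 8505C and 8505C-PTX, where CDH5 was at 55.9 and 4.53 FPKM.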
